A study of Arabidopsis thaliana with 9 samples.

Results

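The genes described here are 7 neighbouring Arabidopsis thaliana loci that encode proteins with a TIR (Toll/interleukin-1 receptor) domain: AT1G72890, AT1G72900, AT1G72910, AT1G72920, AT1G72930 (named TIR), AT1G72940 and AT1G72950. Of the 7 members, 6 are among the 21063 loci with sense tags in the series, and 1 had none. The cluster was chosen by the pattern of AT1G72930, whose slh1 minus No-0 difference at 24 h was among the largest gains in earlier results of these data, so the values of AT1G72930 are a description and carry no p-value. The other members were taken for their position and their TIR domain.

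EXPRSS, a Tag-seq method that reads 1 tag per transcript close to its 3′ end and keeps the strand, was applied to leaves of 4-week-old plants grown in short days at 28 °C and moved to 21 °C at the start of the light period. No-0 is the wild type of the Nossen ecotype, and slh1 is a mutant in that ecotype with an altered RRS1, a TIR-containing immune receptor. Leaves were taken at 0 h (still at 28 °C), 6 h, 9 h and 24 h, with 1 library for each of the 2 genotypes at each of the 4 times. No group has a replicate, so every interval given covers the counting of tags only, and a difference between libraries cannot be told apart from a difference between plants or preparations.

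Plant TIR domains are enzymes that cleave NAD+, and in many immune receptors the TIR domain sits before a nucleotide-binding domain and leucine-rich repeats. The small molecules they make are sensed by complexes of EDS1 with PAD4 or SAG101, which engage the helper receptors ADR1 and NRG1 and raise salicylic acid synthesis. Other TIR proteins lack the repeats or, like AT1G72930, are little more than the domain itself. In slh1 plants, immune responses run without a pathogen at the lower temperature, and high temperature is known to restrain responses of this kind.

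The 8 libraries held 200614 to 503398 sense tags. Levels are given as TPM, sense tags per 1000000 sense tags, with no division by length because each transcript gives 1 tag. A single tag was worth 1.99 to 4.98 TPM, and 0 tags allow up to 5.96 to 15.0 TPM (3 tags). Summed TPM of the leaf genes RBCS1A, RCA and LHCB1.3 was 21305 to 37451, and the seed storage genes CRA1 and 2S1 had 0 tags. PYK10, a gene of roots and hypocotyls, was at 0 to 94.6 TPM, at 24 h 2.43 TPM for slh1 and 49.7 TPM for No-0. SUC2, a phloem companion cell marker, was at 68.9 TPM for No-0 and 19.9 TPM for slh1 at 0 h. At 6 h SUC2 was at 9.54 TPM for No-0 and 68.5 TPM for slh1, and at 24 h at 45.7 and 29.2 TPM. The guard cell marker MYB60 had 4 tags in all. The part of such differences in tissue markers in the results below was not tested.

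In the TAIR10.1 reference, which is the Columbia ecotype, the cluster spans 16082 bp of chromosome 1, chr1:27429916-27445997, and all 7 genes lie on the plus strand. The span also holds 3 other annotated genes. The annotation calls AT1G72890 and AT1G72950 TIR-NBS class disease resistance proteins and the rest TIR-domain proteins. Predicted proteins run from 176 residues in AT1G72930 to 487 in AT1G72890, with 363 in AT1G72900, 380 in AT1G72910, 275 in AT1G72920, 371 in AT1G72940 and 379 in AT1G72950. AT1G72930 occupies chr1:27439240-27440464, with 1 intron, and begins 30 bp after the end of AT1G72920.

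**Figure D1:**
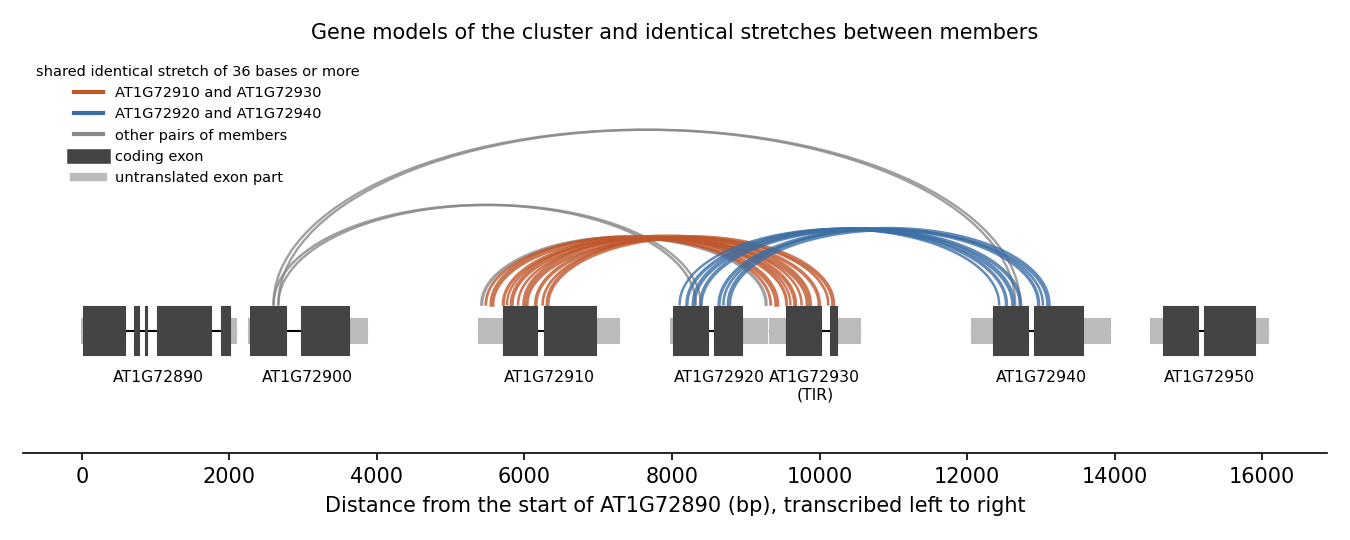
Gene models of the 7 members by distance in bp from the start of AT1G72890, dark for coding and light for untranslated exon parts, with arcs joining identical stretches of at least 36 bases, the read length. Most arcs join AT1G72910 with AT1G72930 and AT1G72920 with AT1G72940, while AT1G72890 and AT1G72950 have none.

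The members are close copies to very different degrees. AT1G72930 and AT1G72910 were identical at 168 of 176 aligned residues (95.5%), which is all of AT1G72930 against the first part of the longer AT1G72910. AT1G72920 and AT1G72940 came next at 86.9%, and the lowest pair, AT1G72890 and AT1G72910, was at 50.9%. Both extremes are visible in a stretch of 60 coding bases from early in the coding sequence, picked as the window of that length in which the members are most alike, and shown for all members on the plus strand to let the copies be compared, with capitals where a base differs from AT1G72930.
AT1G72890: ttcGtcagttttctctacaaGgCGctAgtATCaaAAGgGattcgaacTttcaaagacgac
AT1G72900: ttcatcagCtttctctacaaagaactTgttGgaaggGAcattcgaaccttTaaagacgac
AT1G72910: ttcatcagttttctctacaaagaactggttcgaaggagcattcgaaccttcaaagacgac
AT1G72920: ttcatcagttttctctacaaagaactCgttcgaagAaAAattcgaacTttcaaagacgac
AT1G72930: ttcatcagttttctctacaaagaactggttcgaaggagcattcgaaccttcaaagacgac
AT1G72940: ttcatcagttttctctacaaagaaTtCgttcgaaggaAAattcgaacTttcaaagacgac
AT1G72950: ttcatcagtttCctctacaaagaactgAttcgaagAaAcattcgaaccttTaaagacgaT

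Here AT1G72910 had 0 differences from AT1G72930, AT1G72920 and AT1G72940 had 5, AT1G72900 and AT1G72950 had 6, and AT1G72890 had 13. A 36-base read from this window would therefore fit AT1G72910 and AT1G72930 equally well. The longest identical coding stretch of that pair ran for 155 bases, at chr1:27435852-27436006 in AT1G72910 and chr1:27439694-27439848 in AT1G72930, and it is shown because reads from it cannot be assigned to either gene.
AT1G72910 and AT1G72930: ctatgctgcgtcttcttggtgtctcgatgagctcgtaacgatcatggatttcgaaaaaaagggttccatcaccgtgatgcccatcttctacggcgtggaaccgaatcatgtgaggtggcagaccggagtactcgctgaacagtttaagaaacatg
AT1G72920 and AT1G72940: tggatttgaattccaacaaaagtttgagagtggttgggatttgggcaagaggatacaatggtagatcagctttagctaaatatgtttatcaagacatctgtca

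The second sequence is the 103-base stretch of the other close pair, at chr1:27438636-27438738 in AT1G72920 and chr1:27442967-27443069 in AT1G72940. These stretches lie far from where most EXPRSS sense tags fall, within about 300 bases of the 3′ end. The identical stretch nearest to the end of AT1G72930 stops 320 bases before it, just past that distance. None of the 36-base windows in the last 300 bases of AT1G72930 or AT1G72910 recurs without a mismatch elsewhere in the nuclear genome. This was searched in the Columbia reference, while the reads came from the Nossen ecotype. The exception is AT1G72920, where 60 windows of its last 300 bases recur. A further 7 stretches of 36 to 86 bases from AT1G72910 recur 16 to 732 bp downstream of AT1G72930, beyond its annotated end. Of these, 3 overlap another annotated locus of TAIR10.1, AT1G09353, and 1 of them stops 313 bases before the end of AT1G72910.

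AT1G72930 carried 1098 of the 1150 sense tags of the cluster (95.5%), and the other 6 members held 52 together. Its share was 91.5% to 97.5% in each library. By total, AT1G72910 had 27 tags, AT1G72940 had 14, AT1G72900 had 7, AT1G72890 and AT1G72950 had 2 each, and AT1G72920 had 0. Thus 6 of 7 members were detected in leaf, 4 reached 3 tags in some library, and 3 had at least 10 tags in all.

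In No-0, AT1G72930 was at 248 TPM (95% Poisson interval 199 to 305; 90 tags) at 0 h, 293 TPM (236 to 359; 92 tags) at 6 h, 478 TPM (410 to 555; 174 tags) at 9 h and 76.5 TPM (54.3 to 105; 38.5 tags) at 24 h. In slh1 it was at 434 TPM (347 to 535; 87 tags), 341 TPM (286 to 404; 134.5 tags), 525 TPM (457 to 601; 211 tags) and 1318 TPM (1166 to 1485; 271 tags) at the same times. Ordered by level, No-0 24 h was lowest and slh1 24 h highest, both clear of their neighbours, and each of the 6 libraries between them had an interval that overlapped that of the next. At 24 h AT1G72930 ranked 1652nd among the loci of No-0 and 100th among those of slh1, against 243rd to 459th in the other 6 libraries.

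**Figure D2:**
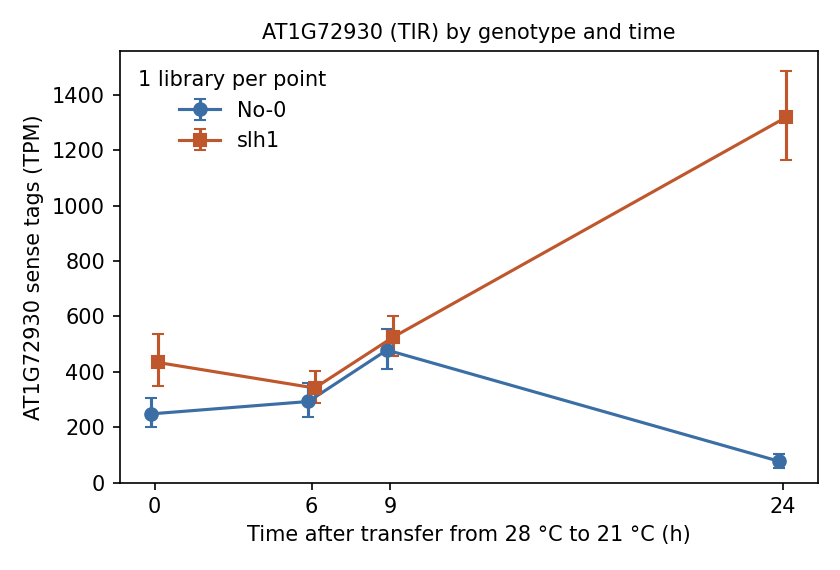
Sense tags of AT1G72930 in TPM against hours after transfer, 1 library per point, with 95% Poisson intervals. The genotypes lie close at 6 h and 9 h and part at 24 h, when slh1 reached 1318 TPM and No-0 76.5 TPM.

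The genotype difference of AT1G72930 is given as slh1 minus No-0 on log2(TPM + 5), with the 95% interval of the log2 ratio from the tag counts. At 0 h it was 0.79 (0.36 to 1.25), a 1.75-fold higher level in slh1 before the shift. It was 0.22 (-0.18 to 0.62) at 6 h and 0.13 (-0.16 to 0.43) at 9 h, both intervals including 0. At 24 h, the comparison that chose the gene, it was 4.02 (3.63 to 4.66), or 17.2-fold. The median difference over all loci with tags in either library was -0.11, 0.31, 0.17 and -0.38 at the 4 times.

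Of the 7 members, 0 were at least 4-fold higher in slh1 at 0 h, 6 h or 9 h, where 2.16%, 3.61% and 1.95% of all loci with tags passed that fold. At 24 h 2 members passed, AT1G72930 and AT1G72910, with 2.02% of all loci passing, and nothing is read from that count because the comparison chose the cluster. AT1G72910 did so on 4 tags against 0.5.

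Over time AT1G72930 went opposite ways in the 2 genotypes. Between 0 h and 24 h, which are the same time of day, the 24 h minus 0 h difference on log2(TPM + 5) was -1.64 in No-0 (ratio interval -2.30 to -1.15) and 1.59 in slh1 (1.25 to 1.97). The number of members at least 4-fold higher at 24 h than at 0 h was 0 in No-0, where 4.06% of loci passed, and 0 in slh1, where 8.94% did. These differences use the 24 h libraries that chose the gene. From 6 h to 9 h, which the choice did not use, AT1G72930 was higher by 0.70 (0.34 to 1.09) in No-0 and by 0.61 (0.31 to 0.95) in slh1, placing it at the 83.8th and 86.4th percentiles of 2115 loci with a mean of at least 20 tags. From 0 h to 9 h the difference was 0.93 (0.57 to 1.33) in No-0 and 0.27 (-0.09 to 0.65) in slh1.

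The edgeR fit used all 8 libraries, with time as a block and a genotype term for each temperature. At 21 °C AT1G72930 was higher in slh1 by 1.12 ± 0.36 (SE) on the log2 scale. The SE depended on the setting, at 0.66 without the block and 1.09 with DESeq2, whose estimate was 1.16. The value rested on 1 time: it was -0.05 without the 24 h libraries, 1.96 without those of 6 h and 2.01 without those of 9 h. Within a genotype, the 21 °C libraries differed from that of 28 °C by 0.23 ± 0.94 in No-0 and 0.75 ± 0.96 in slh1, each less than its SE. None of the other 6 members passed the filter on low counts for this fit.

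AT1G72910, the closest copy of AT1G72930 with a longer carboxyl end, was seen in every library. In No-0 it had 3, 6.5, 4.5 and 0.5 tags at 0, 6, 9 and 24 h, and in slh1 it had 3.5, 1.5, 3.5 and 4. At 24 h this made 0.99 TPM (interval 0.00 to 9.29) in No-0 and 19.5 TPM (5.30 to 49.8) in slh1, and at 6 h 20.7 TPM (7.97 to 43.7) in No-0 and 3.81 TPM (0.27 to 16.3) in slh1. The genotypes stand in opposite order at these times. The log2 ratio slh1 to No-0 had a lower 95% limit of 0.69 at 24 h when 0.5 tags was rounded to 0, and of -0.05 when it was rounded up to 1 tag, so whether that interval includes 0 turns on how 0.5 tags is counted. The interval at 6 h, -5.25 to 0.57, included 0. Within No-0, the 24 h minus 6 h difference was -2.10 on log2(TPM + 5), with an upper ratio limit of -0.92, or -0.53 with counts rounded up.

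AT1G72940 had 4, 2, 2 and 1 tags in No-0 and 0, 5, 0 and 0 in slh1. It was thus detected in all 4 No-0 libraries but, in slh1, in the 6 h library alone, at 12.7 TPM (4.12 to 29.6). The 0 tags of the other slh1 libraries allow up to 15.0, 7.47 and 14.6 TPM, each above the No-0 level at the same time, so that the genotypes are not separated. AT1G72900 had 0, 0, 0 and 1 tags in No-0 and 0, 1, 2 and 3 in slh1, its highest level being 14.6 TPM (3.01 to 42.6) in slh1 at 24 h.

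AT1G72890 had 2 tags, both in slh1 at 6 h, and AT1G72950 had 2 tags, both in No-0 at 9 h. AT1G72920 had 0 tags in all 8 libraries, although its gene ends 30 bp before AT1G72930 begins. These 3 loci were below what the libraries can resolve. Among flanking loci, AT1G72860 and AT1G72960 had 0 tags, AT1G72870 had 4, AT1G72880 had 30, HTH had 57 and LBD7 had 2.

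**Figure D3:**
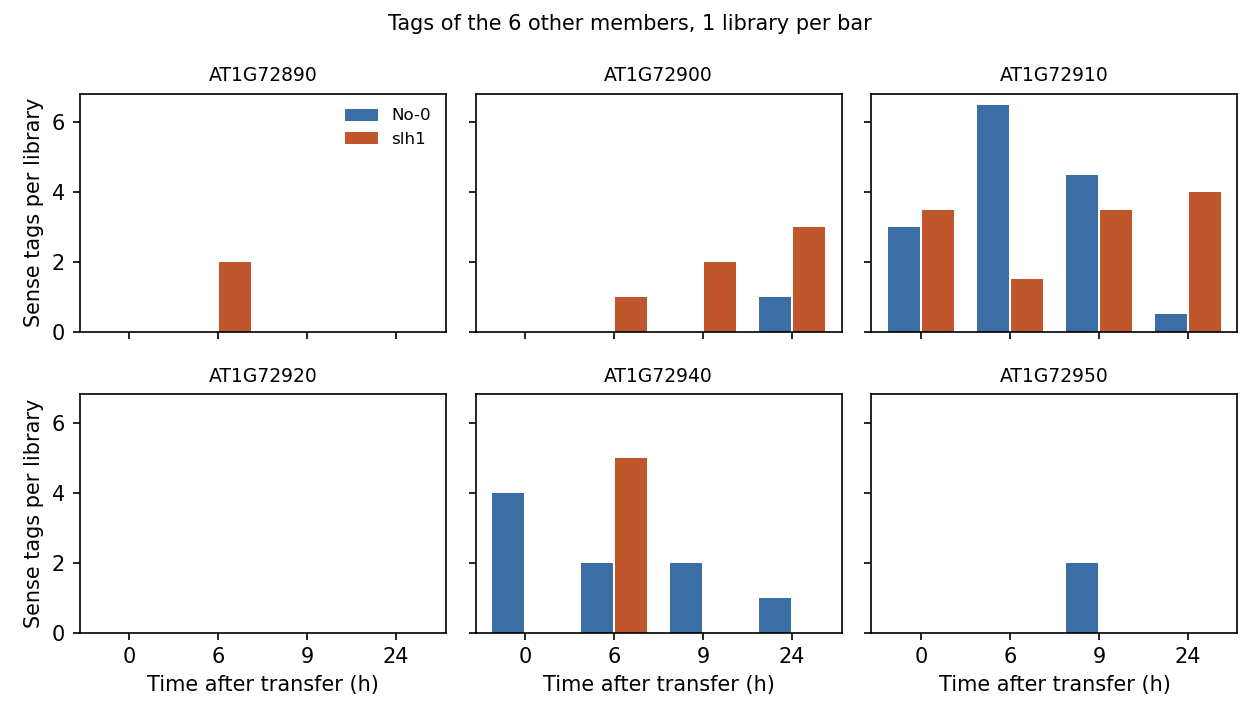
Sense tags per library for the 6 members other than AT1G72930, 1 library per bar, by hours after transfer and genotype. No bar exceeds 6.5 tags, and AT1G72920 has none.

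Where a read fits several genes it was split equally, which leaves fractional counts. AT1G72910 had a fractional count in 6 of 8 libraries and AT1G72930 in 2, those of No-0 24 h and slh1 6 h. In both of these, AT1G72910 also ended in 0.5, as a read split between the pair would leave. In the other 4 libraries AT1G72910 alone was fractional, and the gene that took the remainder cannot be read from the counts. If every AT1G72910 tag belonged to AT1G72930, the level of AT1G72930 would rise by 7.07% in No-0 at 6 h and by 1.12% to 4.02% in each of the other libraries, those of 24 h included. AT1G72890, AT1G72900, AT1G72940 and AT1G72950 had whole counts throughout.

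Tags of the opposite strand were few. AT1G72930 had 51.5 antisense tags, 4.48% of its total, where 10.11% to 12.30% of all tags in a library were antisense. By library the share was 4.26%, 3.66%, 2.79% and 0% in No-0 and 5.95%, 10.6%, 2.09% and 4.58% in slh1. The slh1 6 h share of 10.6% (exact binomial interval 6.22% to 16.7%, tags rounded) was the highest, and 0 of 38.5 in No-0 at 24 h allows up to 9.25%. AT1G72910 had 5.5 antisense tags in 4 libraries and AT1G72900 had 1. In No-0 6 h, slh1 0 h and slh1 9 h, the antisense counts of AT1G72930 and AT1G72910 both ended in 0.5, as a split read would leave.

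The 250 bases before each annotated start were searched on both strands for TTGAC, the core of the W-box bound by WRKY factors. There were 3 copies before AT1G72930, 2 before AT1G72910, 1 each before AT1G72900 and AT1G72940, and 0 before AT1G72890, AT1G72920 and AT1G72950. Of 27443 protein-coding promoters of that length, 44.9% held at least 1 copy and 14.1% at least 2. Before AT1G72910 and AT1G72930, a copy on each strand abuts the other to form a palindrome, marked in capitals in the identical 30-base windows of both, at chr1:27435245-27435274 and chr1:27439100-27439129 on the plus strand. They are shown because the close pair shares them.
AT1G72910: tttctcgtccGTCAATTGACttagttctaa
AT1G72930: tttctcgtccGTCAATTGACttagttctaa

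The palindrome was looked for after the sequences had been seen, and 7 promoters (0.0255%) hold it. The window of AT1G72930 lies within the annotated AT1G72920 gene. A match is a description of the letters and does not show a site in use, and AT1G72910 and AT1G72930 shared these bases while their tag totals were 27 and 1098.

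The 5 loci whose log2(TPM + 5) was most like that of AT1G72930 over the 8 libraries, among 2114 others with a mean of at least 20 tags, were PCC1 (AT3G22231, a small gene of pathogen and clock control) with Pearson r = 0.951, AT5G42530 with 0.939, AT2G25510 with 0.938, CYP83B1 (AT4G31500, an enzyme of indole glucosinolate synthesis) with 0.911 and AT1G27330 with 0.886. The points share their libraries and depth, and the values describe likeness alone. PCC1 was at 168, 248, 684 and 15.9 TPM over the No-0 libraries, against slh1 levels of 476, 145, 635 and 1170 TPM. All 5 had their highest level in slh1 at 24 h. Without that library their r was 0.969, 0.890, 0.899, 0.908 and 0.816, and they ranked 7th, 74th, 62nd, 53rd and 171st.

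**Figure D4:**
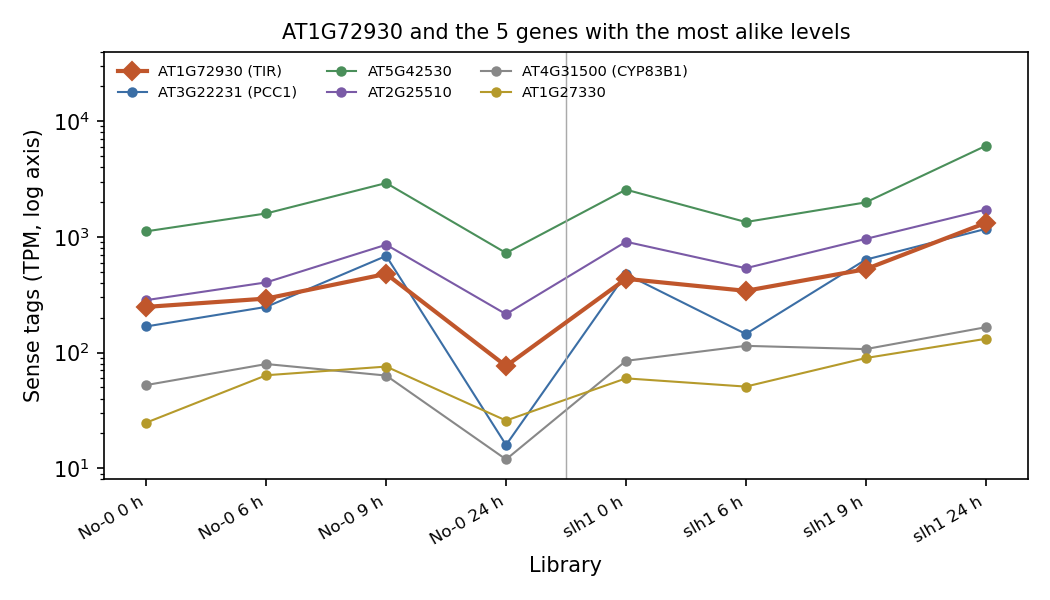
Sense tags in TPM on a log axis for AT1G72930 and the 5 loci of highest Pearson r with it, by library. Levels in slh1 at 24 h are the highest of each line, and those in No-0 at 24 h the lowest for all but AT1G27330.

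Beyond the cluster, 34 other TIR-domain genes were listed and 22 had tags, 4 of them reaching 10 tags in a library. At 24 h 1 of the 17 with tags, AT3G04210, was at least 4-fold higher in slh1, beside 2.02% of all loci. By that fold 0 were lower. No share of all loci lower by that fold is given here for any time. AT3G04210, a TIR-NBS gene, reached 122 TPM in the slh1 library of that time, where No-0 was at 11.9 TPM. Single calls also came before: 1 of 17 was higher by that fold at 0 h (AT5G45000, 8 tags against 0) and 1 of 17 lower at 6 h (LAZ5, 0 tags against 5), both named after their values were seen. The list median was 0.45 at 24 h and 0.70, 0.45 and 0.16 at 0, 6 and 9 h. That of 24 h is the value of 1.5 tags in slh1 against 2 in No-0. A tag was worth 4.86 TPM in the slh1 library and 1.99 TPM in that of No-0, so fewer tags gave a positive difference. RLM3 (AT4G16990), needed for resistance to necrotrophic fungi, had its most tags at 0 h, 44 for No-0 and 19 for slh1, and 3 to 18 in the later libraries. RPP4 (AT4G16860), a receptor for downy mildew, and SNC1 (AT4G16890), its neighbour, had 117.5 and 82.8 tags, with fractions from shared reads that make them uncertain, and WRR4 (AT1G56510), a receptor for white rust, had 24. RRS1, altered in slh1, had 7 tags in all and its partner RPS4 had 5, too few to check the genotype, and the altered sequence is not visible in counts.

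Of 16 genes that act with or after TIR domains, 15 had tags. At 24 h 6 were at least 4-fold higher in slh1, beside 2.02% of all loci, and 0 were lower by that fold. The 6 were WRKY70, ICS1, PAD4, ADR1-L1, PBS3 and FMO1. The share of all loci is of those higher, over 17245 with any tags, and was not matched for level. By any amount 13 of 15 were higher, a count with no share of all loci to set beside it. Where the median of all loci was -0.38, the list median was 1.56. That median is the value of 2 tags in slh1 against 0 in No-0, below 3 tags. A tag was worth 4.86 TPM in that slh1 library and 1.99 TPM in that of No-0, and the median was not adjusted for this depth. At 0 h the median was -0.63, the value of 1 tag in No-0 against 0 in slh1, with 5 higher and 6 lower. It was 0.80 at 6 h and 0.42 at 9 h. Single calls came before 24 h in this list too. At 0 h NRG1.2 was at least 4-fold higher in slh1 (5 tags against 0), beside 2.16% of all loci. ICS1 was lower by that fold at 0 h (0 tags in slh1 against 6). At 6 h ADR1-L1 was lower (0 tags in slh1 against 6) and 0 genes were higher, beside 3.61% of all loci. ICS1 and ADR1-L1 are among the 6 that were higher at 24 h. WRKY70, a transcription factor of salicylic acid responses, had a No-0 level of 5.96 TPM and an slh1 level of 141 TPM at 24 h. In the same order, ICS1, which makes the salicylic acid precursor, was at 1.99 and 82.7 TPM. PAD4 was at 11.9 and 63.2 TPM, and the helper receptor ADR1-L1 at 9.93 and 63.2 TPM. EDS1, at 16.9 and 51.1 TPM, did not reach 4-fold, with a difference of 1.36 from fractional counts of 8.5 and 10.5 tags. NPR1, a salicylic acid receptor, was at 21.9 and 19.5 TPM. PBS3 and FMO1, with 5 and 4 tags in slh1, had 0 in No-0. This is the comparison that chose AT1G72930, and both lists were drawn up with its result known.

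**Figure D5:**
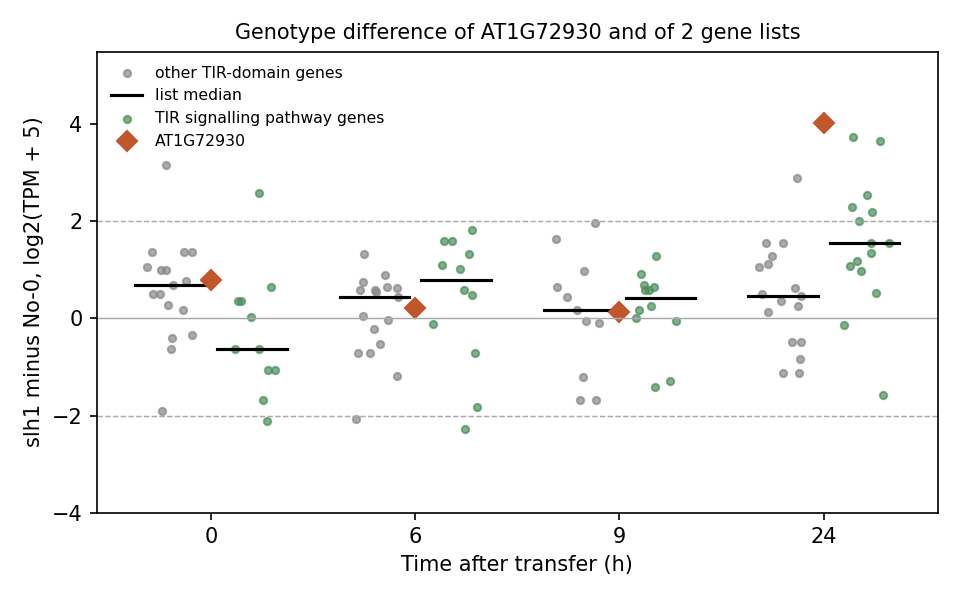
Difference slh1 minus No-0 on log2(TPM + 5) at each time, for AT1G72930 (diamond), other TIR-domain genes and pathway genes with tags (points), with list medians (bars) and dashed lines at 4-fold. At 24 h the pathway median is 1.56, the TIR-domain median 0.45 and AT1G72930 4.02. This pathway median is the value of 2 tags in slh1 against 0 in No-0, and the TIR-domain median that of 1.5 tags against 2.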

How the data were processed

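Sense and antisense tags per locus were counted in 8 leaf libraries, and a further sample of unassigned reads, which the labels put in no group, was not used. The deposited values are estimated counts (expected counts), because the authors split a read equally among overlapping genes or up to 10 matching genes. The submitters' processing notes name Bowtie 0.12.8, Novoalign 2.08.03, R 2.15.3 and the TAIR10 build; which aligner made these counts is not certain. Rows with a prefixed name were read as antisense, which the files do not state. PCR copies were not marked by molecular identifiers, so intervals cover counting error only.

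TPM was computed from the sense tags, with a pseudocount of 5 TPM for log2 differences and a threshold of 4-fold. Poisson and binomial intervals are exact at 95%. For ratio and binomial intervals, counts ending in 0.5 were rounded to the even number. edgeR 4.0.16 (R 4.3.3) used TMM and its quasi-likelihood fit on rounded counts; AT1G72930 is given with its SE and no p-value, since its 24 h difference chose it. The code was tested on simulated data. Alternatives were other pseudocounts, library sizes, filters, whole counts, DESeq2 1.42.0 and leaving out each time.

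The named genes were all 7 members, the 5 most alike loci, the 5 other TIR-domain genes with most tags, pathway genes with at least 10 tags in a library, and loci sharing tags. AT3G04210 fell under this rule. PBS3, FMO1, NRG1.2, RRS1, RPS4, AT5G45000 and LAZ5 were named after their values were seen. Members and lists were chosen with earlier results of these data known. Locus names were matched to TAIR10.1 RefSeq annotation and genome, of the Columbia ecotype; the counts hold no coordinates. Identity was computed with Biopython 1.88 from translated coding sequence.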

Additional observations from a re-analysis of the deposited data

Results flagged for a closer look

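AT1G72930 moved in opposite directions in the 2 genotypes between 0 h and 24 h: its log2(TPM + 5) was 1.59 higher in slh1 and fell by 1.64 in No-0, with both counting intervals clear of 0. The difference between the genotypes was not tested, since each rests on 1 library per time, and it shares the 24 h libraries with the comparison that chose the gene.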

How the results depend on the processing

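Under the other pseudocounts, library sizes and whole counts, AT1G72930 kept its direction: its slh1 minus No-0 difference at 24 h ranged from 3.79 to 4.09, its 24 h minus 0 h difference from -1.68 to -1.47 in No-0 and from 1.56 to 1.67 in slh1. The number of members at least 4-fold higher in slh1 at 24 h was 2, 3 with a pseudocount of 1 TPM, where AT1G72900 also passed, and 1 with a pseudocount of 20 TPM, where AT1G72910 no longer passed. Detected members were 6, and 4 when at least 3 tags in a library were asked for. Leaving out each time in turn, the edgeR log2 fold change of AT1G72930 between genotypes at 21 °C ranged from -0.0498 to 2.01, that of No-0 after the shift from -0.32 to 0.69 and that of slh1 from -0.08 to 1.12. For the genotype comparison without a time block it was 1.24 ± 0.66 (SE), with a mean of at least 20 tags 1.24 ± 0.70, and with DESeq2 1.16 ± 1.09. Libraries of the same time were matched through the time block; replicate numbers could pair none, since each group has 1 library. Rounding counts that end in 0.5 up, chosen after seeing the data, moved the lower ratio limit of AT1G72910 at 24 h from 0.69 to -0.05. Depth limits every member but AT1G72930, at 1.99 to 4.98 TPM per tag.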
